A study of Mus musculus with 18 samples.

Results

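Resistin (Retn), adiponectin (Adipoq), adipsin (Cfd) and the fatty acid binding proteins Fabp4 and Fabp5 were followed in the lacrimal, meibomian and submandibular glands of castrated male mice, with and without testosterone. The members were the probes annotated to these 5 genes. 4 genes had a probe, 1 each, out of 10500 probes, and all 4 probes passed the filter on dim signals that left 7463 probes for testing. No probe here carried the symbol Cfd, so that gene was not analysed here.

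Every animal was an orchiectomised male of the BALB/c strain, so both arms lacked testes. A hormone pellet that held placebo or testosterone stayed in place for 21 days, and the placebo groups are the controls. The 6 groups were placebo and testosterone in the lacrimal, the meibomian and the submandibular gland, with 3 pools (A, B and C) in each. A pool combined the 10 glands of 5 animals according to the labels, which elsewhere give 4 animals per sex and experiment. Age was not given in the sources used here. Whole glands were pooled, so each value mixes all cells of the tissue and whatever was dissected with it. The p-values below measure the spread between pools.

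Fat cells secrete resistin and adiponectin, 2 hormones of metabolism: resistin was named for its opposition to insulin action in mice, and adiponectin promotes fatty acid oxidation and insulin sensitivity. Adipsin, also fat-derived, is complement factor D, the protease that starts the alternative complement pathway. Fatty acid binding proteins are small cytosolic carriers of lipids. Fabp4 is the form abundant in fat cells and is also made by macrophages and capillary endothelium, and Fabp5 is the epidermal form, abundant in keratinocytes and other epithelia. Retn, Adipoq and Fabp4 are therefore treated as fat tissue markers and Fabp5 is set apart.

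The promoter stretches of the 2 hormone genes are shown because Retn and Adipoq departed from their group means together, as described further on. Each holds the 250 bases before the RefSeq start on the plus strand of build GRCm38.p6, Retn at chr8:3655520-3655769 and Adipoq at chr16:23146286-23146535, and capitals mark matches to CCAAT.
Retn: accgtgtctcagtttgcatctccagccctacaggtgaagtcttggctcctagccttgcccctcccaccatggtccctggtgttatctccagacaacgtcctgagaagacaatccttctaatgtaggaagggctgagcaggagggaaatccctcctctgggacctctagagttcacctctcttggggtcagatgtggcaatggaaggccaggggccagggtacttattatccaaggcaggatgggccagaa
Adipoq: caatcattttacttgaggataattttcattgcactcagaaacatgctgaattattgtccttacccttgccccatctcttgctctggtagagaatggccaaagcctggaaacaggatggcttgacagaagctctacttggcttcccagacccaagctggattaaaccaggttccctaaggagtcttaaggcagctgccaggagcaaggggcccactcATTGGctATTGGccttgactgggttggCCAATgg
5 motifs were searched on both strands. The nuclear receptor half-site was searched as AGGTCA and the androgen receptor half-site as AGAACA. The site of C/EBP factors was searched as TTGCNNAA, the CCAAT box by those letters and the TATA box as TATAAA. The Retn window held no match of any of them. The Adipoq window held 3 matches of CCAAT, 2 of them on the opposite strand 34 and 27 bases before the start and 1 on the gene's strand 7 bases before it, and none of the other 4. Of 32851 promoter windows of this length, 33.8% held the CCAAT box, 14% the nuclear receptor half-site, 9.56% the C/EBP site, 16.1% the androgen receptor half-site and 12.4% the TATA box. Only this motif matched, so matches of different motifs did not overlap. They describe letters and not a bound site. Cfd was in the same promoter table and held no match of the 5 motifs.

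All values are probe intensities in the scaled units the authors deposited, with array medians between 0.929 and 0.952, and a mean is given ± SD over n = 3 pools. A change is the log2 difference, testosterone minus placebo, after an offset of 0.174 was added, given ± SE from limma, and a call is a Benjamini-Hochberg adjusted p below 0.05 over all tested probes. The meibomian and submandibular glands were set apart by the markers of their names, and the lacrimal gland less so. The 14 sebocyte probes summed to between 735.8 and 1126 in the meibomian pools and to at most 64.17 in the others, and 3 submandibular secretory probes summed to between 685.2 and 898.8 in the submandibular pools and to at most 24.09 elsewhere. The 8 lacrimal acinar probes summed to between 968.4 and 1783 in the lacrimal pools, and overlapped there with the submandibular pools (881.9 to 1123). In the meibomian pools they summed to between 22.14 and 125.3. The meibomian arrays had the narrowest range, with a highest intensity of 134.6 to 219.1 against 597.5 to 1042 on the other arrays. Spearman correlations between pools of a group lay between 0.904 and 0.992.

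Retn was lower with testosterone in all 3 glands, and it was 1 of 2 probes, 0.0268% of those tested, called lower in each of them (the other had no gene symbol). That count is limited by the meibomian gland, where 9 probes in all were called lower. Mean Retn intensities with testosterone were 52.8% (lacrimal), 41.4% (meibomian) and 53.0% (submandibular) of those with placebo. In the lacrimal gland the placebo pools A, B and C read 1.40, 0.834 and 1.0, and the testosterone pools 0.570, 0.638 and 0.502. Every testosterone pool lay below every placebo pool. The signal was dim: all 3 testosterone pools and placebo pool B lay below the medians of their arrays (0.93 to 0.95). The means were 1.08 ± 0.291 and 0.570 ± 0.068 (n = 3 each), a change of -0.73 ± 0.22 (limma adjusted p = 0.0182).

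In the meibomian gland the placebo pools of Retn read 2.20, 3.35 and 2.58 and the testosterone pools 1.42, 1.08 and 0.860, again without overlap. Testosterone pool C lay below the median of its array (0.935). The means were 2.71 ± 0.589 and 1.12 ± 0.282, a change of -1.16 ± 0.22 (limma adjusted p = 0.0207). In the submandibular gland the placebo pools read 6.24, 6.82 and 9.82 and the testosterone pools 3.38, 4.32 and 4.43. All 3 testosterone pools were again the lower ones. The means were 7.63 ± 1.92 and 4.04 ± 0.580, a change of -0.87 ± 0.22 (limma adjusted p = 0.013).

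Of the 4 members, 1 was called lower in the lacrimal gland, 1 in the meibomian gland and 3 in the submandibular gland, where 14.8%, 0.121% and 5.25% of all tested probes were called lower. No member was called higher, and 13.3%, 0.469% and 8.54% of all probes were. Pools were apart and lower for 1 member (Retn) in the lacrimal gland, 1 (Retn) in the meibomian gland and 2 (Retn and Fabp5) in the submandibular gland, against 21.5%, 11.8% and 12.3% of all probes. The Retn effect did not differ beyond its error between glands. The difference of effects was 0.43 (95% interval -0.22 to 1.07, limma adjusted p = 0.397) for lacrimal minus meibomian, 0.14 (-0.51 to 0.79, 0.793) for lacrimal minus submandibular and -0.29 (-0.93 to 0.36, 0.625) for meibomian minus submandibular. These intervals leave room for sizeable differences.

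The direction of Retn was the same in all 3 glands under all 32 other settings tried, and the call stood in every gland under 19 of them. Leaving out placebo pool A ended the lacrimal call (-0.55, adjusted p = 0.0913), and so did leaving out testosterone pool C (-0.66, 0.0674). It also ended with a 4-fold larger offset (-0.48, 0.0506) and with array weights (-0.67, 0.067). The meibomian call ended without placebo pool A (-1.29, 0.121), B (-1.0, 0.144) or C (-1.18, 0.0979) and without testosterone pool A (-1.32, 0.0704) or B (-1.15, 0.115). The submandibular call ended without placebo pool C (-0.68, 0.0667), without testosterone pool A (-0.75, 0.0573) and with the gland fitted alone (-0.87, 0.0613), all limma adjusted p-values.

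**Figure D1:**
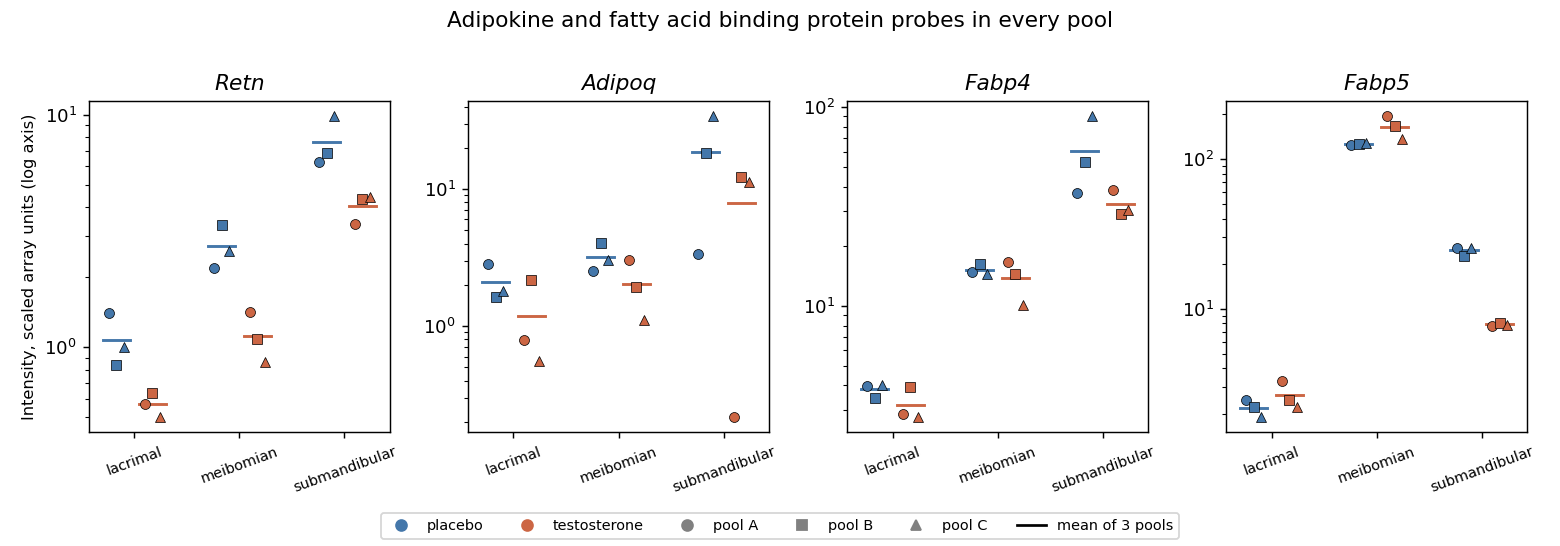
Intensity of each member probe in all 18 pools, on a log axis in scaled array units; blue is placebo, orange is testosterone, the marker gives the pool letter and the bar the mean of 3 pools. Retn testosterone pools lie below placebo pools in every gland, Adipoq pools of the submandibular gland spread from 0.218 to 33.9, and Fabp5 drops from about 24.6 to 7.87 in the submandibular gland.

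Adipoq had lower means with testosterone in each gland, at 56.2%, 63.4% and 42.8% of placebo, but the pools overlapped in all 3 and no change passed the test. In the lacrimal gland the placebo pools read 2.83, 1.64 and 1.82 and the testosterone pools 0.795, 2.18 and 0.561. Testosterone pool B lay inside the placebo range. The change was -0.90 ± 1.02 (95% interval -3.07 to 1.27, limma adjusted p = 0.565). The meibomian placebo pools read 2.53, 4.02 and 3.05 and the testosterone pools 3.04, 1.94 and 1.12, a change of -0.69 ± 1.02 (-2.86 to 1.48, limma adjusted p = 0.826).

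The widest spread of Adipoq was in the submandibular gland, where the placebo pools A, B and C read 3.34, 18.4 and 33.9 and the testosterone pools 0.218, 12.3 and 11.3. Pool A was the lowest in both arms, and testosterone pool A lay under the 10th percentile of its own array (0.230). The letters are not known to mark shared animals. The change was -1.77 ± 1.02 (-3.94 to 0.40, limma adjusted p = 0.281). Without testosterone pool A, but with the low placebo pool A kept, it was -0.12 (limma adjusted p = 0.939). Over the 32 other settings the change ran from -2.715 to -0.12, so its size hung on single pools. It was called under none of them. The lowest limma adjusted p was 0.0503, with pool letters as a block. The joint fit takes 1 error for the 18 arrays, and the spread of the submandibular pools set the wide intervals of Adipoq in the other glands too.

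Fabp4 was lower with testosterone in the submandibular gland, where the call rested on a narrow margin. The placebo pools read 37.0, 53.1 and 90.2 and the testosterone pools 38.3, 29.2 and 30.6. Placebo pool A fell inside the testosterone range. The means were 60.1 ± 27.3 and 32.7 ± 4.93 (n = 3 each), a change of -0.79 ± 0.25 (limma adjusted p = 0.0476). The call ended under 20 of the 32 other settings, with adjusted p-values up to 0.216 over all of them and changes from -1.13 to -0.45. Without placebo pool C the change was -0.45 (adjusted p = 0.213).

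Testosterone made no difference to Fabp4 that passed the test in the other 2 glands. The lacrimal placebo pools read 3.96, 3.47 and 4.03 and the testosterone pools 2.86, 3.91 and 2.78, a change of -0.26 ± 0.25 (95% interval -0.80 to 0.27, limma adjusted p = 0.487). The meibomian placebo pools read 14.9, 16.4 and 14.5 and the testosterone pools 16.7, 14.6 and 10.1, a change of -0.17 ± 0.25 (-0.71 to 0.36, limma adjusted p = 0.82). The difference of the Fabp4 effect between the submandibular gland and the others was not called, at 0.52 ± 0.36 for lacrimal minus submandibular (limma adjusted p = 0.317) and 0.62 ± 0.36 for meibomian minus submandibular (0.331).

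Fabp5 fell in the submandibular gland to 32.0% of placebo, the largest change among the members' calls. The placebo pools read 25.7, 22.6 and 25.4 and the testosterone pools 7.73, 8.07 and 7.82. The groups were far apart, with 24.6 ± 1.72 against 7.87 ± 0.179 (n = 3 each). The change was -1.62 ± 0.14 (limma adjusted p = 8.87e-07), and the call stood under all 32 other settings, with changes from -1.78 to -1.56 and an adjusted p of at most 0.000629.

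No such fall was seen in the other glands. The lacrimal placebo pools of Fabp5 read 2.45, 2.22 and 1.90 and the testosterone pools 3.28, 2.46 and 2.22, a change of 0.25 ± 0.14 (95% interval -0.06 to 0.55, limma adjusted p = 0.225). The meibomian placebo pools read 125.1, 126.5 and 129.2 and the testosterone pools 193.4, 165.5 and 136.3. All testosterone pools were higher there, but the change of 0.36 ± 0.14 (0.06 to 0.67) was not called (limma adjusted p = 0.285). On those arrays Fabp5 stood at 88.3% to 93.0% of the highest intensity of the array, and that highest intensity was itself larger with testosterone (147.7 to 219.1 against 134.6 to 142.9). With quantile normalization within each gland or over all arrays the meibomian change was 0.017 and 0.046.

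The effect on Fabp5 differed between the submandibular gland and each of the other 2. The difference was 1.87 ± 0.20 for lacrimal minus submandibular (limma adjusted p = 4.34e-06) and 1.98 ± 0.20 for meibomian minus submandibular (1.13e-05). For lacrimal minus meibomian it was -0.12 ± 0.20 (95% interval -0.55 to 0.32, limma adjusted p = 0.774). Fabp5 was the only member called in these comparisons. The members called numbered 0 for lacrimal minus meibomian, 1 for lacrimal minus submandibular and 1 for meibomian minus submandibular, where 17.6%, 24.0% and 7.40% of all tested probes were called.

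**Figure D2:**
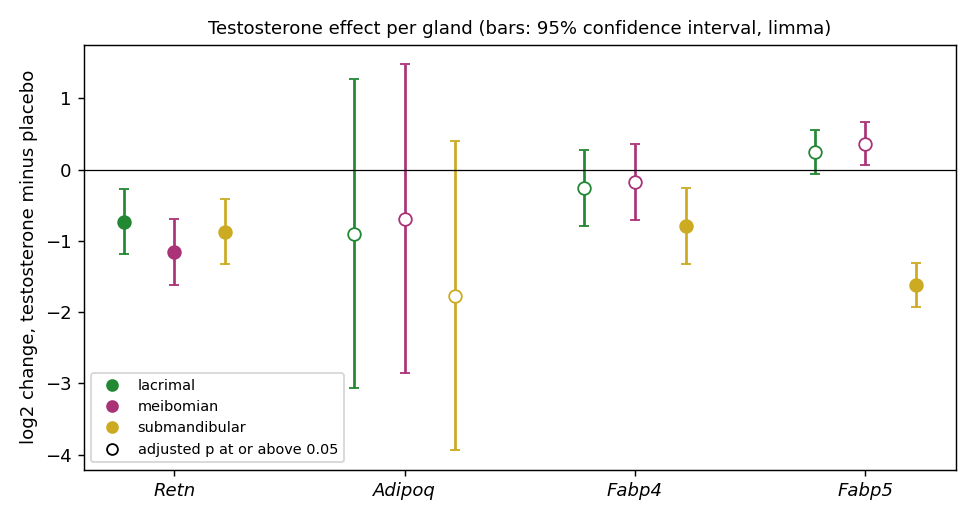
Log2 change, testosterone minus placebo, of each member in each gland, with 95% confidence intervals from limma; filled points had an adjusted p below 0.05. Retn lies below 0 in all 3 glands, the Adipoq intervals all cross 0, and Fabp5 lies at -1.62 in the submandibular gland and above 0 in the other 2.

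In the placebo groups the order of the glands was the same for Retn and Fabp4 and different for Fabp5. Lacrimal pools had the lowest mean Retn intensity (1.08), meibomian pools were next (2.71) and submandibular pools highest (7.63), with a log2 difference of -1.21 ± 0.22 for lacrimal minus meibomian (limma adjusted p = 0.000108) and -1.43 ± 0.22 for meibomian minus submandibular (2.27e-05). Fabp4 followed the same order at 3.82, 15.3 and 60.1, and its neighbours differed by -1.95 ± 0.25 (3.28e-06) and -1.87 ± 0.25 (6.42e-06). The extremes were 6.22-fold apart for Retn and 14.1-fold for Fabp4 on the offset log2 scale, submandibular over lacrimal.

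Fabp5 was highest in the meibomian gland (126.9 ± 2.11), followed by the submandibular (24.6 ± 1.72) and the lacrimal gland (2.19 ± 0.274). The log2 difference was -5.76 ± 0.14 for lacrimal minus meibomian (limma adjusted p = 5.56e-15), -3.39 ± 0.14 for lacrimal minus submandibular (1.12e-11) and 2.36 ± 0.14 for meibomian minus submandibular (5.11e-10). With quantile normalization over all arrays the differences that involve the meibomian gland were -6.78 and 3.24. Fabp5 lay near the top of the meibomian arrays, so the order is firmer than the size of these differences. The keratinocyte list was also highest in the meibomian gland, with 19 probes summing to between 827.4 and 910.8 in meibomian placebo pools, 31.5 to 38.2 in submandibular and 24.2 to 27.5 in lacrimal ones, so its sums in these last 2 glands were closer to each other than those of Fabp5. Skeletal muscle probes, 14 in number, were also highest in the meibomian placebo pools, with sums of 278.9 to 339.2 against 6.02 to 7.19 in lacrimal and 7.46 to 19.8 in submandibular ones. For Adipoq the means were 2.10 ± 0.644, 3.20 ± 0.761 and 18.5 ± 15.3 in the same order as Retn, and neighbours were not told apart by the test (-0.58 ± 1.02 and -1.98 ± 1.02, limma adjusted p = 0.631 and 0.101). Lacrimal minus submandibular gave -2.56 ± 1.02 (0.0533) for Adipoq. These calls turned on single pools and settings: lacrimal minus submandibular was called under 7 of 31 other settings and meibomian minus submandibular under 4. Without submandibular placebo pool A the values were -3.51 (limma adjusted p = 0.0139) and -2.92 (0.0243). Without submandibular testosterone pool A, which enters only the error of the joint fit, they were -2.56 (0.00303) and -1.98 (0.00992). Without submandibular testosterone pool B or C lacrimal minus submandibular was called too (0.0418 and 0.0394).

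Across the placebo pairs 3 of 4 members were called for lacrimal minus meibomian, 3 for lacrimal minus submandibular and 3 for meibomian minus submandibular. Of all probes 67.9%, 44.0% and 66.6% were called, so such differences were common on these arrays.

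Within groups, pools with more Retn also had more Adipoq. The log2 deviations of the 18 pools from their group means correlated with Pearson r = 0.66 and Spearman rho = 0.77, and the signs matched in 15 of 18 pools. The exact two-sided permutation p over the 46656 orders of pools within groups was 4.29e-05 (adjusted over the 6 pairs of members, 0.000257). Without the 2 pools farthest along Retn, lacrimal placebo A and submandibular placebo C, r was 0.65 (exact permutation p = 0.000386). The group means still included these 2 pools, so this value is not free of them. Over the 12 pools outside the submandibular gland r was 0.80.

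Retn and Fabp4 gave r = 0.64 and rho = 0.57 (exact permutation p = 0.0212 for r and 0.0401 for rho, adjusted 0.0635 and 0.12). Without the same 2 pools r was 0.55, again with group means that included them. Adipoq and Fabp4 gave r = 0.32 and rho = 0.38 over all pools (exact permutation p = 0.349 and 0.217, adjusted 0.507 and 0.325). Without both submandibular A pools the r of this pair was 0.49 (exact permutation p = 0.00251). The group means still included these A pools, so this r and its p are not free of them. Submandibular testosterone pools B and C kept Adipoq deviations of 1.71 and 1.58 from a mean that pool A (-3.29) had lowered. Over the 12 pools outside the submandibular gland the r of Adipoq and Fabp4 was 0.89. Fabp5 did not pass with any of the fat markers, with r = 0.46 against Retn (rho 0.50), 0.14 against Adipoq (rho 0.25) and 0.20 against Fabp4 (rho 0.11), at exact permutation p-values of 0.0811, 0.436 and 0.507 for r and 0.079, 0.351 and 0.75 for rho (adjusted 0.162, 0.507 and 0.507 for r, and 0.158, 0.421 and 0.75 for rho). Pools of 1 letter did not vary together across the whole array. That cannot show whether they share animals, and the main model did not pair pools by letter.

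**Figure D3:**
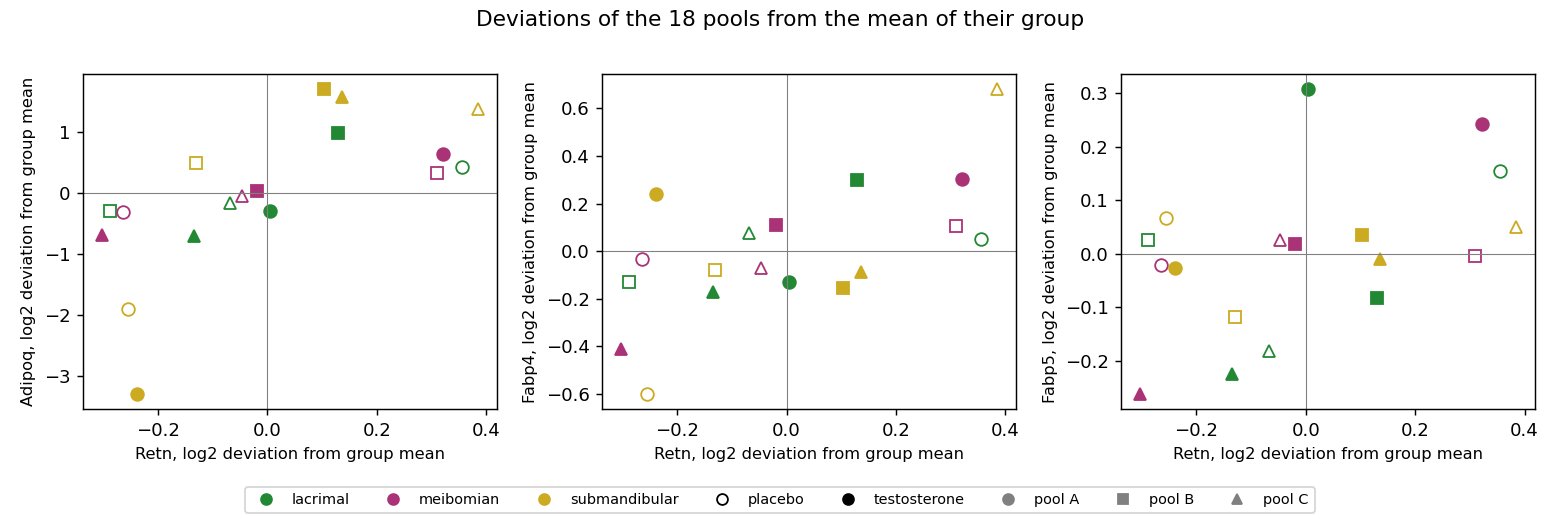
Log2 deviation of each of the 18 pools from the mean of its group, Retn on the horizontal axis against Adipoq, Fabp4 and Fabp5; colour gives the gland, filled markers testosterone and the shape the pool letter. Adipoq rises with Retn (r = 0.66), with both submandibular A pools at the bottom left, and the Fabp5 points are more scattered (r = 0.46).

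Over all 18 arrays, 6438 probes with 1 symbol were ranked by the likeness (Pearson r of log2 values) of their pattern to each member. These correlations mix the differences between glands with those between pools and are given as a description. Fabp4 (0.93) was among the 5 nearest to Retn, after Sppl3 (0.95), Ecrg4 (0.94) and Car3 (0.94), the carbonic anhydrase abundant in fat and muscle, and before Tpgs2 (0.92). Fabp4 was closest to Atp1b1 (0.98), Alox12 (0.96), Tlr3 (0.96), Vwa7 (0.96) and Sppl3 (0.96). Adipoq was closest to Eya2 (0.91), Gm2a (0.82), Tie1 (0.81), Tlr4 (0.80) and Aplp2 (0.79), and Retn reached 0.73 with it. Fabp5 had other genes nearest to it, namely Acsl5 (0.99), Mal (0.98), Got1 (0.98), Vdac1 (0.98) and Mfap4 (0.98), and its r with Retn was 0.29.

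Calls among other genes of fat cells went in both directions. Among 14 tested probes of lipid storage and breakdown, 4 rose and 2 fell in the lacrimal gland, none was called in the meibomian gland, and 2 rose in the submandibular gland. Their median changes were -0.02, 0.14 and -0.34, beside -0.07, 0.06 and 0.01 over all tested probes. Called or not, 8, 5 and 10 of the 14 had a negative change in the lacrimal, meibomian and submandibular gland. Abhd5, an activator of fat cell triglyceride breakdown, rose from 5.17 ± 0.749 to 30.9 ± 1.71 in the lacrimal gland and from 9.87 ± 0.0533 to 49.5 ± 5.54 in the submandibular gland. Mgll, the monoacylglycerol lipase, rose from 1.18 ± 0.164 to 3.90 ± 0.854 in the submandibular gland (limma adjusted p = 1.64e-05). In the lacrimal gland Cidea, a lipid droplet protein, rose from 0.673 to 2.88, Dgat2, which makes triglyceride, rose from 2.56 to 5.69, and Lpl, lipoprotein lipase, fell from 9.65 to 4.24.

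Car3 resembled Retn most closely among the lipid list and fell in the lacrimal gland from 1.42 ± 0.142 to 0.787 ± 0.350 (-0.79 ± 0.28, limma adjusted p = 0.0469). In the meibomian gland Car3 read 2.17 ± 0.268 and 1.24 ± 0.316, with pools apart but no call (0.253), and in the submandibular gland 15.1 ± 6.90 and 9.58 ± 0.645 (0.221). Of 10 tested probes of fat cell transcription factors and insulin response, Cebpa, a driver of fat cell differentiation, was the only one called: it fell by 0.51 in the lacrimal gland (limma adjusted p = 0.0487) and by 0.57 in the submandibular gland (0.0492). The medians of that list were -0.38, 0.00 and -0.04. Pparg, the nuclear receptor that drives fat cell genes, was not called in any gland (limma adjusted p = 0.47, 0.826 and 0.592).

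Of 9 other secreted proteins of fat cells, 1 rose and 2 fell in the lacrimal gland, 1 rose in the meibomian gland, and 1 rose and 1 fell in the submandibular gland, with medians of -0.08, 0.25 and -0.10. Haptoglobin (Hp), a haemoglobin-binding plasma protein, fell from 339 to 109 in the lacrimal gland and rose in the other 2, from 1.54 to 3.32 and from 3.01 to 7.32. Rbp4, the retinol carrier, fell in the submandibular gland from 3.15 ± 1.59 to 1.33 ± 0.521 (-1.08 ± 0.35, limma adjusted p = 0.0486), with overlapping pools. Of 7 brown fat markers, 2 rose in the lacrimal gland, none was called in the meibomian gland and 2 fell in the submandibular gland, with medians of 0.14, 0.27 and -0.31. Cox8b fell there from 22.9 ± 9.59 to 7.23 ± 3.10 and Cox7a1 from 6.97 ± 1.82 to 4.21 ± 0.288 (limma adjusted p = 0.0021 and 0.0145). Both are respiratory chain subunits that muscle also makes. Cidea was also in the lipid storage and sebocyte lists, and the brown fat marker Elovl3 in the sebocyte list, so these counts share probes.

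Among the relatives of resistin, Retnla, a resistin-like protein of macrophages and epithelia, fell from 18.8 ± 3.20 to 2.44 ± 0.707 in the lacrimal gland (-2.89 ± 0.29, limma adjusted p = 1e-06). It read 14.1 ± 2.09 and 8.05 ± 3.39 in the meibomian gland (0.201) and 6.11 ± 1.72 and 7.78 ± 0.966 in the submandibular gland (0.451). Over the 3 tested probes of the family 2 fell in the lacrimal gland, 1 in the meibomian gland and 1 in the submandibular gland, Retn included in each. Of 3 tested receptors of adipokines, Adipor1, an adiponectin receptor, fell in the lacrimal gland from 11.5 ± 1.70 to 7.59 ± 0.703 (limma adjusted p = 0.00306) and Lepr, the leptin receptor, rose from 0.419 ± 0.0789 to 1.06 ± 0.303 (0.000741). None was called in the other 2 glands.

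In the family of fatty acid and retinoid binding proteins, 9 probes were tested. In the submandibular gland 8 of them, Fabp4 and Fabp5 included, had a negative change. The median there was -0.30, beside 0.01 over all tested probes, and the 2 calls were Fabp4 and Fabp5. In the lacrimal gland Fabp6, the ileal bile acid carrier, rose from 1.20 ± 0.177 to 2.32 ± 0.0811 (limma adjusted p = 0.00118) and the median was 0.04. None was called in the meibomian gland, with a median of 0.13. Of 6 PPAR and retinoid receptor probes, 1 rose in the lacrimal gland and none was called elsewhere, with medians of 0.24, 0.32 and -0.07. None of 6 tested probes of the alternative complement pathway, in which adipsin acts, was called in any gland, with medians of -0.07, 0.01 and 0.20.

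Markers of other cells moved in some of the same comparisons. In the submandibular gland 4 of 14 skeletal muscle probes fell and none rose, with a median of -0.55, and their summed intensity ran from 7.46 to 19.8 in placebo and from 5.46 to 6.92 in testosterone pools. Atp2a1, the calcium pump of fast muscle, fell there from 3.56 ± 2.22 to 0.883 ± 0.335, and Pvalb, parvalbumin of fast muscle, fell from 1.04 ± 0.525 to 0.254 ± 0.0419. None of 13 endothelial probes was called there (median -0.34, sums of 15.7 to 16.8 and 11.0 to 14.8), and 10 of 14 fibroblast and matrix probes rose (median 0.95, sums of 68.4 to 77.9 and 111.3 to 120.5). Of 11 macrophage probes 2 rose (median 0.25, sums of 63.7 to 72.0 and 69.1 to 74.3). The part of these shifts in the falls of Retn, Fabp4 and Fabp5 in that gland was not tested. In such bulk pools fewer cells of a type and less RNA per cell cannot be told apart.

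For the epithelial Fabp5 the nearest lists were those of keratinocytes and sebocytes, the lipid-filling cells of sebaceous glands. In the submandibular gland 2 of 19 keratinocyte probes rose and none fell (median 0.07): Sprr1b, a cornified envelope protein, rose from 6.23 ± 4.01 to 22.9 ± 2.99 and Sfn, an epithelial 14-3-3 protein, rose from 2.41 ± 0.551 to 4.32 ± 0.246. The sums over that list were 31.5 to 38.2 in placebo and 52.0 to 65.3 in testosterone pools, while Fabp5 was lower. These sums include the rise of Sprr1b, and 9 of the 19 probes had a negative change. Of 14 sebocyte probes 2 fell there, with a median of -0.18 and sums of 47.3 to 64.2 and 36.2 to 44.3. Scd1, the stearoyl-CoA desaturase, fell from 20.2 ± 2.95 to 8.39 ± 3.77 in the submandibular gland and rose from 3.15 ± 0.601 to 8.44 ± 1.66 in the lacrimal gland. In the lacrimal gland 4 sebocyte probes rose and 2 fell, and in the meibomian gland 1 rose, with medians of 0.18 and 0.30. For keratinocytes 2 rose and 1 fell in the lacrimal gland (median -0.16) and 1 fell in the meibomian gland (-0.17).

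In the lacrimal and meibomian glands, where Retn also fell, 28.1% and 0.590% of all tested probes were called in either direction. Of the 14 skeletal muscle probes 1 fell in the lacrimal gland and none was called in the meibomian gland (medians -0.19 and -0.28), and of the 13 endothelial probes 1 and none (-0.21 and -0.10). Of the 11 macrophage probes 2 fell in the lacrimal gland and 1 in the meibomian gland (0.05 and -0.10). Among fibroblast and matrix probes 1 rose and 3 fell in the lacrimal gland and none was called in the meibomian gland (-0.34 and 0.14). Of 8 lacrimal acinar probes 4 fell in the lacrimal gland, with a median of -0.59. Their part in the Retn falls was not tested.

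**Figure D4:**
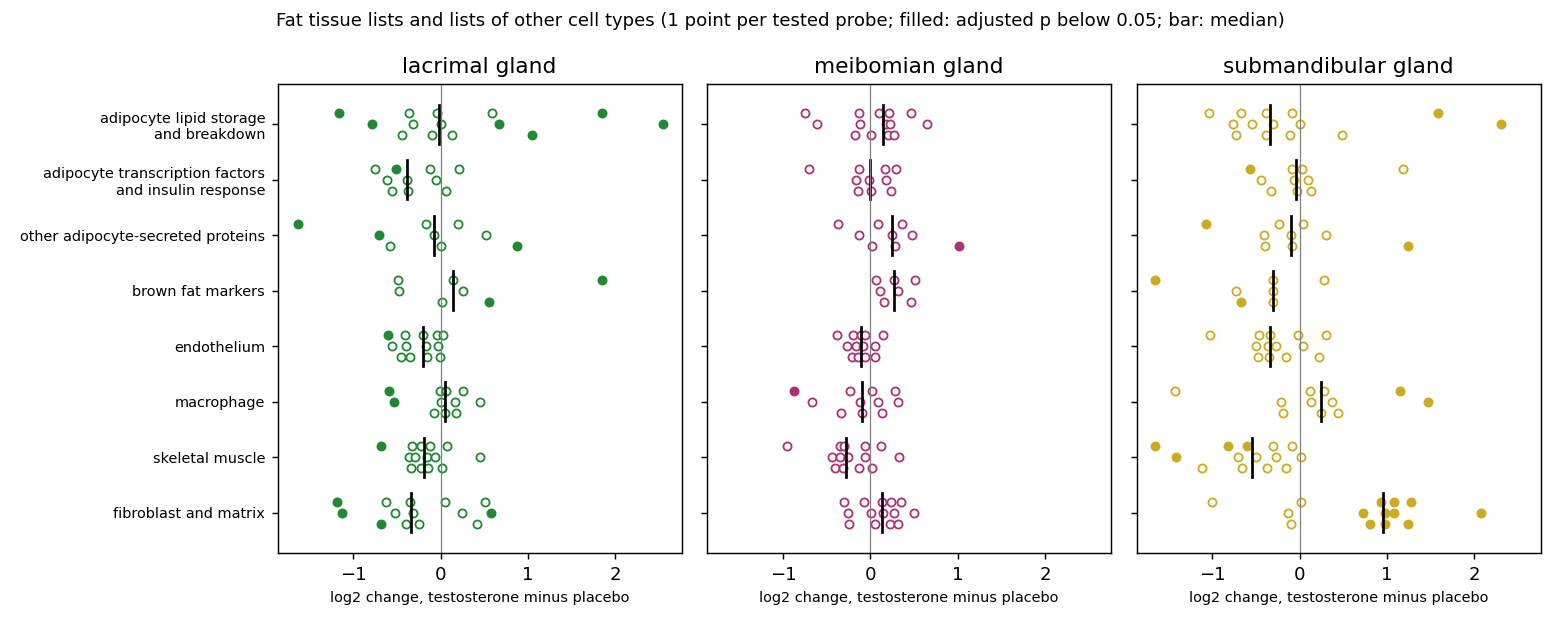
Log2 change, testosterone minus placebo, of every tested probe in 4 lists of fat genes and 4 lists of other cell types, 1 panel per gland; filled points had an adjusted p below 0.05 and black bars are list medians. Medians of the fat lists lie between -0.38 and 0.27 in the lacrimal and meibomian glands, and in the submandibular gland the muscle list lies below 0 (median -0.55) and the fibroblast list above it (0.95).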

How the data were processed

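RNA of 18 gland pools was measured on 1-colour arrays, and the deposited values are linear probe intensities in which the authors scaled each array to a similar median (0.929 to 0.952), as the values show. The sources used here do not give the array, the background step or the scaling method. The value -1 (37 to 118 probes per array) lay far below all others and was read as no value, and other values below 0 (lowest -0.128) as 0.

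Values were changed to log2(value + 0.174), the offset being the 10th percentile of positive values. A probe was tested with at least 2 values in each group and a value above the 40th percentile of its array on at least 3 of 18 arrays; of 10500 probes, 146 failed on missing values and 2891 on brightness. Symbols came from the platform annotation (8983 probes with 1 symbol, 1 with several, 1516 with none), and a RefSeq table changed 0 of them. Promoters were taken from a RefSeq table of GRCm38.p6, where 3 of the 5 genes matched (Fabp4 and Fabp5 were not among them).

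A single model of all arrays was fitted with limma 3.58.1 under R 4.3.3, with 6 group means, 12 residual degrees of freedom, eBayes with a trend and Benjamini-Hochberg adjustment over all tested probes at 0.05, and the script was tested on simulated data. The exact permutation p-values of the deviations came from all orders of pools within groups, listed in Python 3.11.15. Ranks and rho came from scipy 1.17.1. The number of arrays limits the precision. Members, lists and the rule for naming genes (all members, up to 4 called probes of each list and gland with the largest change or up to 2 of the brightest where none was called, and the 5 nearest patterns; Pparg, and Scd1 in the lacrimal gland, fell outside it and were named after their values were seen) were chosen with earlier results of these data known. Alternatives were other offsets, filters, normalizations, variance models, array weights, each gland alone, pool letters as a block and leaving out each array. Residual correlations between pools of 1 letter ran from -0.10 to 0.13 within glands and from -0.06 to 0.13 across glands, so the letters were not used to pair pools. Figures were drawn with matplotlib 3.10.9.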

Additional observations from a re-analysis of the deposited data

Results flagged for a closer look

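The change with testosterone differed between glands for the genes below by a test of the difference itself in limma, given as log2 values with the Benjamini-Hochberg adjusted p over all tested probes. They are members or related genes named above, and other genes of the lists also differed and are not given. Of all tested probes 17.6% were called for lacrimal minus meibomian, 24.0% for lacrimal minus submandibular and 7.40% for meibomian minus submandibular. For Fabp5 the difference was 1.87 for lacrimal minus submandibular (limma adjusted p = 4.34e-06) and 1.98 for meibomian minus submandibular (limma adjusted p = 1.13e-05).

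Retnla differed by -2.0 for lacrimal minus meibomian (limma adjusted p = 0.00267) and -3.26 for lacrimal minus submandibular (limma adjusted p = 2.17e-05). In Adipor1 the effects were apart by -0.82 for lacrimal minus submandibular (limma adjusted p = 0.00438). For Lepr the difference was 1.11 for lacrimal minus meibomian (limma adjusted p = 0.0101) and 1.28 for lacrimal minus submandibular (limma adjusted p = 0.00287). Fabp6 differed by 0.78 for lacrimal minus meibomian (limma adjusted p = 0.0364) and 0.91 for lacrimal minus submandibular (limma adjusted p = 0.0122). In Abhd5 the effects were apart by 2.35 for lacrimal minus meibomian (limma adjusted p = 5.9e-08) and -2.10 for meibomian minus submandibular (limma adjusted p = 1.55e-06). For Cidea the difference was 1.58 for lacrimal minus meibomian (limma adjusted p = 0.0242) and 2.58 for lacrimal minus submandibular (limma adjusted p = 0.000575). Lpl differed by -1.18 for lacrimal minus meibomian (limma adjusted p = 0.00389) and -0.78 for lacrimal minus submandibular (limma adjusted p = 0.0354). In Dgat2 the effects were apart by 1.72 for lacrimal minus submandibular (limma adjusted p = 0.00689). For Mgll the difference was -0.91 for lacrimal minus meibomian (limma adjusted p = 0.0216), -2.03 for lacrimal minus submandibular (limma adjusted p = 2.31e-05) and -1.12 for meibomian minus submandibular (limma adjusted p = 0.0139). Hp differed by -2.64 for lacrimal minus meibomian (limma adjusted p = 2.26e-06) and -2.87 for lacrimal minus submandibular (limma adjusted p = 8.02e-07). In Cox8b the effects were apart by 1.77 for meibomian minus submandibular (limma adjusted p = 0.0232). For Cox7a1 the difference was 1.23 for lacrimal minus submandibular (limma adjusted p = 0.00142) and 1.19 for meibomian minus submandibular (limma adjusted p = 0.00629). Scd1 differed by 1.09 for lacrimal minus meibomian (limma adjusted p = 0.0264), 2.70 for lacrimal minus submandibular (limma adjusted p = 1.12e-05) and 1.61 for meibomian minus submandibular (limma adjusted p = 0.00539). In Sprr1b the effects were apart by -1.70 for lacrimal minus submandibular (limma adjusted p = 0.0455) and -2.17 for meibomian minus submandibular (limma adjusted p = 0.0324). For Sfn the difference was 1.44 for lacrimal minus meibomian (limma adjusted p = 0.000101) and 0.77 for lacrimal minus submandibular (limma adjusted p = 0.0136). Pvalb differed by 1.29 for lacrimal minus submandibular (limma adjusted p = 0.0143) and 1.44 for meibomian minus submandibular (limma adjusted p = 0.0198).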

How the results depend on the processing

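The sign of Retn in every gland and the submandibular fall of Fabp5 stood under all settings run, and of 384 values of member changes with testosterone 349 kept sign and call, 33 lost a call, 1 gained one and 1 changed sign. The lacrimal count of member calls (1) was 0 with a 4-fold larger offset or array weights and 0 to 1 with 1 pool left out. The meibomian count of all calls (44) was 246 with the gland alone, 77 with the larger offset, 28 with quantile normalization over all arrays, 1993 with array weights, 0 with the pool letter as a replicate block and 0 to 170 with 1 pool left out, while member calls (1) were 2 with array weights, 0 with the block and 0 to 1. The submandibular gland alone gave 409 calls in total and 1 among members, and leaving out 1 pool gave 1 to 3 members. With array weights 2079 and 1275 probes differed in effect for lacrimal minus meibomian and meibomian minus submandibular, with 2 members in the last; leaving out 1 pool gave 361 to 703 there. Quantile normalization over all arrays or within glands turned the lacrimal minus meibomian difference of Fabp4 to 0.0109 and 0.0112 and of Fabp5 to 0.112 and 0.145, and the deviations of Fabp4 and Fabp5 to r = -0.0092. Other signs turned with 1 pool left out: Fabp4 in the meibomian gland ran from -0.33 to 0.034, and lacrimal minus meibomian from -0.70 to 0.14 (Adipoq), -0.30 to 0.0611 (Fabp4) and -0.27 to 0.0052 (Fabp5). Lacrimal minus submandibular ran from -0.0534 to 0.32 for Retn and from -0.77 to 1.82 for Adipoq, whose meibomian minus submandibular value ran from -0.56 to 2.03. With the replicate block the Retn call in the meibomian gland (adjusted p = 0.0937) and the Fabp4 call in the submandibular gland (0.0826) ended, and both placebo differences of Adipoq against the submandibular gland were called (0.00276 and 0.00653). Array weights called them too (0.00439 and 0.00153), as well as Fabp5 in the meibomian gland (0.00319) and the meibomian minus submandibular difference of Fabp4 (0.0244), and the larger offset called Adipoq for lacrimal minus submandibular (0.0292). The cause was not tested. The pools A of the submandibular gland limit what can be said of Adipoq, and Fabp5 near the top of the meibomian range limits its change there.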
